A study of Mus musculus with 12 samples.

Results

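The 10 genes of bone morphogenetic protein (BMP) and activin signalling were followed over 12 mouse colon libraries, by taking the entries of the count tables that carry their symbols. They are the ligand genes Bmp2, Bmp4, Bmp7 and Inhba, the antagonist genes Grem1 and Chrdl1, and the target genes Id1, Id2, Id3 and Smad6. All 10 were found among the 24054 genes of the tables, and all 10 were among the 14860 with enough reads to be tested. Poly(A) RNA came from 3 groups of 4 libraries, all of the NSG strain, an immunodeficient mouse without mature lymphocytes. N is normal colon of wild-type genotype, described as adjacent to the tumours. BT-T is tumour of genotype BrafV600E;Tgfbr2-/-, with an activated kinase allele and without a receptor subunit for TGF-beta. BTPRZ-T is tumour of genotype BrafV600E;Tgfbr2-/-;Rnf43-/-/Znrf3-/-;p16 Ink4a-/-, which also lacks a pair of ubiquitin ligases that clear WNT receptors from the cell surface and a cell cycle inhibitor. The tumours were engrafted, so the edits belong to the grafted cells, and stroma and vessels of the host are sequenced with them. Ages, the number of independently edited clones and whether the 4 libraries of a group are separate animals are not stated. Hence p-values measure the spread between these libraries, which may be technical.

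BMPs and activins are secreted dimers of the TGF-beta family that bind paired serine/threonine kinase receptors. BMP receptors phosphorylate SMAD1, SMAD5 and SMAD9, activin receptors phosphorylate SMAD2 and SMAD3, and both sets enter the nucleus with the shared partner SMAD4. In the normal colon, BMP activity is highest towards the top of the crypt, where cells differentiate, while stromal cells below the crypt secrete antagonists such as gremlin 1 that keep it low around the stem cells. The Id genes encode inhibitors of basic helix-loop-helix transcription factors and are classical direct targets of BMP SMADs, and Smad6 encodes an inhibitory SMAD that is induced by the pathway it restrains.

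Levels are counts per 1M reads (CPM), scaled between libraries by TMM factors, which adjust for differences in composition. Each mean is given ± SD over 4 libraries. Log2 fold changes are given ± SE with a two-sided edgeR quasi-likelihood p-value, adjusted by Benjamini-Hochberg over all 14860 genes. A gene is called changed, and said to have risen or fallen, at an adjusted p under 0.05. Libraries held 15.7M to 26.1M gene reads, so 1 read was worth 0.0348 to 0.0677 CPM. A set of 3 libraries stood apart by their number of genes with a read: N replicate 2 had 14175 against 16152 to 16432 in the other N libraries, and BTPRZ-T replicates 1 and 4 had 14697 and 13450 against 16438 and 16131 in replicates 2 and 3. Transcripts of ribosomal proteins made up 9.82% of gene reads in N replicate 2, against 1.38 to 1.71% for the rest of N, 1.63 to 2.42% for BT-T and 3.16 to 8.03% for BTPRZ-T. Of the edited genes, Cdkn2a, which encodes p16 Ink4a and Arf, stood at 0.281 ± 0.052 CPM in normal colon, 10.9 in BT-T and 23.9 in BTPRZ-T, and Tgfbr2 at 194 ± 90.2, 417 ± 87.7 and 199.6 ± 51.2 CPM. Mean levels of Braf were 53.5, 53.4 and 31.5 CPM, of Rnf43 43.1, 66.5 and 146, and of Znrf3 23.9, 25.6 and 28.4, in the same order. Counts over whole genes cannot show whether an edit is present.

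Of the 10 members, the activin subunit gene Inhba and the antagonist gene Grem1 rose in BT-T tumours, while the BMP ligand genes and the Id genes among them were not called. In BTPRZ-T tumours Inhba rose again, Smad6 fell, and Grem1 was not called. In these bulk samples, fewer cells of a type and less RNA per cell cannot be told apart. Against N, 2 of 10 members rose and 0 fell in BT-T, where 8.57% of all tested genes were called, 5.67% higher and 2.9% lower. In BTPRZ-T 1 rose and 1 fell, where 11.8% of all genes were called, 5.66% higher and 6.18% lower. The median log2 fold change of the 10 was 0.03 in BT-T and -0.17 in BTPRZ-T, beside -0.10 for all genes in both. Without N replicate 2 the counts were 2 risen and 1 fallen for BT-T, and 2 and 2 for BTPRZ-T, where 13.5% and 32.3% of all genes were called. Without all 3 libraries of low gene number they were 2 and 1, and 1 and 3, beside 28.7% and 34.9% of all genes. Both comparisons share the N libraries and are not independent of each other.

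**Figure D1:**
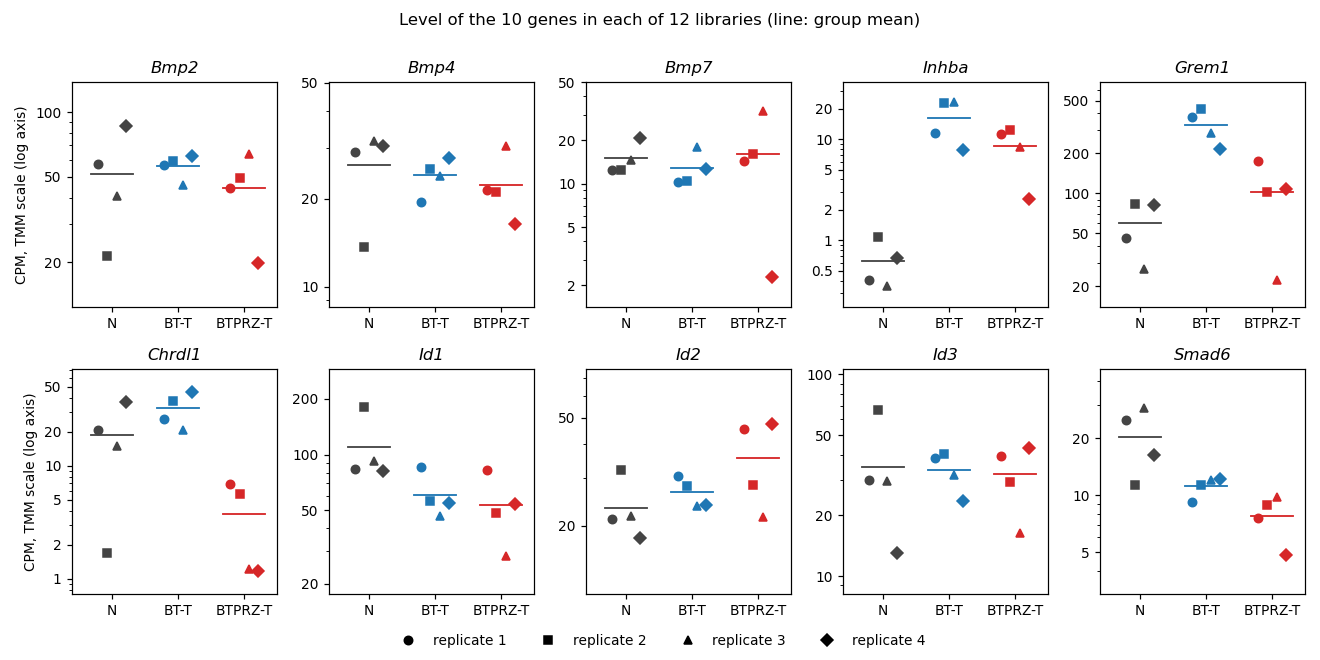
Level of each of the 10 genes in CPM on the TMM scale (log axis, with its own range for each gene) in N, BT-T and BTPRZ-T; each point is 1 library, its shape the replicate number, and each line the group mean. Inhba lies at 0.354 to 1.08 CPM in normal colon and at 2.53 to 23.0 in the tumours, Grem1 at 215 to 433 in BT-T against at most 83.5 in N, and Bmp4 at 13.7 to 31.5 over all 12 libraries.

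The 250 bases upstream of the RefSeq start are shown for the 3 members that were called in a comparison with N, so that their promoters can be set side by side. They were read 5′ to 3′ on the gene's strand from GRCm38.p6: Inhba at chr13:16011601-16011850 on the plus strand, Grem1 at chr2:113758649-113758898 and Smad6 at chr9:64022060-64022309, both on the minus strand. Capitals mark GGCGCC, a GC-rich element that BMP SMADs bind, which is its own reverse complement.
Inhba: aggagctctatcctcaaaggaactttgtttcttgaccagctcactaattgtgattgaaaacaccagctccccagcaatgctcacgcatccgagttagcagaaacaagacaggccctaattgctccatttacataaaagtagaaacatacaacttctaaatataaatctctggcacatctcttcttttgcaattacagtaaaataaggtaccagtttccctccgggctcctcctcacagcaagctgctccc
Grem1: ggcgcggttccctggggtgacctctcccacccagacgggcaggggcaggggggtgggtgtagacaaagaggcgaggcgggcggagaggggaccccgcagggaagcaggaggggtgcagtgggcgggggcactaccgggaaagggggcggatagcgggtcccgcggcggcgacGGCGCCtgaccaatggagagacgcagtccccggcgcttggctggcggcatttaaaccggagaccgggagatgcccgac
Smad6: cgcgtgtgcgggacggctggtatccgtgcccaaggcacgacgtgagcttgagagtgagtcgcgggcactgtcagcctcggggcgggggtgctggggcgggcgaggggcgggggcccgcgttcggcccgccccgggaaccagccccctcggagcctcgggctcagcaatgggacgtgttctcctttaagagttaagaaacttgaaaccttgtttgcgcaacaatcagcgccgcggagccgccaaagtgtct
The Inhba window is 43.2% G or C, the Grem1 window 72% and the Smad6 window 66.8%. GGCGCC occurs 1 time in the Grem1 window and in neither of the others, and 9.59% of 32817 RefSeq promoter windows of this length hold it. A further 3 motifs were searched on both strands: CAGACA or TGTCTG, an element of activin and TGF-beta SMADs (17.1% of all windows), TGACTCA or TGAGTCA, the AP-1 site (4.46%), and TGACGTCA, the cAMP response element (1.55%). None of these letters stand in the 3 windows. Promoter windows were found for 6 of 10 members, and of the remaining 3, Bmp4, Id2 and Id3, Id2 alone held a motif, 1 GGCGCC. Bmp2, Bmp7, Chrdl1 and Id1 had no entry.

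None of the 3 BMP ligand genes among the members was called in either tumour group by edgeR. Bmp2 (chromosome 2, 133552159 to 133562885 on GRCm38, plus strand), which in the colon is made by differentiated epithelium, stood at 57.6, 21.3, 40.8 and 86.7 CPM in N replicates 1 to 4, at 56.8, 59.1, 46.0 and 62.5 in BT-T and at 44.5, 49.4, 63.7 and 19.9 in BTPRZ-T. The lowest library was BTPRZ-T replicate 4, with N replicate 2 next to it, and all 3 groups overlapped. The means were 51.6 ± 27.7, 56.1 ± 7.12 and 44.4 ± 18.3 CPM. The log2 fold change of Bmp2 against N was 0.12 ± 0.40 for BT-T (edgeR adjusted p = 0.897) and -0.22 ± 0.40 for BTPRZ-T (adjusted p = 0.808).

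Bmp4 (chromosome 14, 46383520 to 46390669, minus strand), a ligand made mainly by stromal cells of the crypt top, was measured at 29.1, 13.7, 31.5 and 30.3 CPM in normal colon, at 19.5, 25.3, 24.0 and 27.7 in BT-T and at 21.4, 21.1, 30.4 and 16.5 in BTPRZ-T. N replicate 2 was lowest of the 12, and the other N libraries lay above every BT-T library. Its fold change was -0.12 ± 0.29 for BT-T (edgeR adjusted p = 0.858) and -0.23 ± 0.29 for BTPRZ-T (adjusted p = 0.702), on the log2 scale. Bmp7 (chromosome 2, 172868012 to 172940321, minus strand), a ligand that pairs with BMP2 and BMP4 as well as with itself, had 12.4, 12.4, 14.6 and 20.5 CPM in normal colon, 10.3, 10.5, 18.0 and 12.6 in BT-T, and 14.3, 15.9, 31.6 and 2.27 in BTPRZ-T. The highest and the lowest of all 12 libraries were both BTPRZ-T tumours. The log2 fold change of Bmp7 was -0.22 ± 0.55 for BT-T (edgeR adjusted p = 0.858) and 0.10 ± 0.55 for BTPRZ-T (adjusted p = 0.947).

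Of 20 further ligand genes of the family, 11 had enough reads to be tested, and 2 rose and 0 fell in each tumour group. Over all tested genes, 5.67% rose and 2.9% fell in BT-T, and 5.66% rose and 6.18% fell in BTPRZ-T. Bmp8b rose in both, from 8.39 ± 5.99 CPM in normal colon to 74.7 ± 27.6 in BT-T (log2 fold change 3.15 ± 0.51, edgeR adjusted p = 0.00282), with 97.4 ± 14.7 in BTPRZ-T (3.53 ± 0.52, adjusted p = 0.00137). Its near-identical neighbour Bmp8a had mean levels of 9.94, 5.44 and 3.70 CPM, and reads that fit both copies are not in the counts, so the split between them is uncertain. Gdf6, a ligand of skeletal patterning, rose in BT-T, with 6 reads in normal colon, 408 in BT-T and 53 in BTPRZ-T (log2 fold change 5.44 ± 1.27, edgeR adjusted p = 0.0197, for BT-T). The call of Gdf6 was lost when N replicate 1 or 3 or BT-T replicate 2 or 3 was left out (adjusted p 0.0531 to 0.0580). The median log2 fold change of the 11 was 0.28 in BT-T and -0.43 in BTPRZ-T, beside -0.10 for all genes in both.

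The activin subunit Inhba (chromosome 13, 16011851 to 16031621, plus strand), which encodes the chain of activin A, was barely expressed in normal colon and rose in both tumour groups. It stood at 0.403, 1.08, 0.354 and 0.675 CPM in normal colon, from 7, 16, 6 and 10 reads. In BT-T it stood at 11.4, 22.9, 23.0 and 7.80 CPM, and in BTPRZ-T at 11.2, 12.3, 8.32 and 2.53. Each tumour library lay above each N library, and the 2 tumour groups overlapped. The non-overlap is shared by 13.4% of all genes tested in BT-T and by 6.88% in BTPRZ-T, counting those higher in the tumours; 9.02% and 7.64% were lower without overlap. The mean of 16.3 ± 7.84 CPM in BT-T was 25.9 times that of N, 0.629 ± 0.334 (log2 fold change 4.69 ± 0.63, edgeR adjusted p = 0.00101). The mean in BTPRZ-T, 8.58 ± 4.37 CPM, was 13.6 times that of N (3.77 ± 0.61, adjusted p = 0.00214). Both calls of Inhba held in each of the 12 fits that left out 1 library.

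Another activin chain gene, Inhbb, was called in BTPRZ-T only, which does not show a difference between the tumours. Inhbb had 5.08 ± 5.45 CPM in normal colon, 19.6 ± 8.34 in BT-T (log2 fold change 1.95 ± 0.63, edgeR adjusted p = 0.0800), with 23.8 ± 13.1 in BTPRZ-T (2.23 ± 0.64, adjusted p = 0.0403). That call held in 3 of 12 fits with 1 library left out, those without N replicate 2, N replicate 4 or BTPRZ-T replicate 3, and the adjusted p was 0.0506 to 0.107 in the others. Follistatin, encoded by Fst, binds and neutralises activins, and its gene rose in both tumour groups. Fst had 6.15 ± 3.28 CPM in normal colon, 40.1 ± 12.998 in BT-T (log2 fold change 2.71 ± 0.51, edgeR adjusted p = 0.00600), with 19.7 ± 7.15 in BTPRZ-T (1.68 ± 0.49, adjusted p = 0.0430). The BT-T call of Fst held in all 12 fits with 1 library left out. The BTPRZ-T call held in the 3 without N replicate 2, BT-T replicate 4 or BTPRZ-T replicate 3, and the adjusted p was 0.0552 to 0.0943 in the other 9.

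Of the antagonist genes, Grem1 rose in BT-T, and neither Grem1 nor Chrdl1 was called in BTPRZ-T against N. Grem1 (chromosome 2, 113746164 to 113758646, minus strand), whose product gremlin 1 binds BMP2, BMP4 and BMP7, stood at 46.1, 83.5, 27.0 and 81.6 CPM in normal colon. It stood at 374, 433, 285 and 215 CPM in BT-T, and at 176, 102, 22.5 and 108 in BTPRZ-T. All BT-T libraries lay above all N libraries and above all BTPRZ-T libraries, while BTPRZ-T overlapped N through its replicate 3. The mean in BT-T, 327 ± 96.1 CPM, was 5.48 times the 59.6 ± 27.7 of N (log2 fold change 2.45 ± 0.54, edgeR adjusted p = 0.0155). The call was lost without N replicate 1 (adjusted p = 0.0526) and held in the 11 other fits with 1 library left out. In BTPRZ-T the mean of Grem1 was 102 ± 62.9 CPM (log2 fold change 0.78 ± 0.52, edgeR adjusted p = 0.396).

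Chrdl1 (chromosome X, 143285674 to 143394262, minus strand), a chordin-like secreted antagonist, had 20.9, 1.69, 15.1 and 36.9 CPM in normal colon, 25.8, 37.4, 20.6 and 45.0 in BT-T, and 6.90, 5.60, 1.21 and 1.18 in BTPRZ-T. BTPRZ-T lay below all BT-T libraries and below N replicates 1, 3 and 4, but N replicate 2 fell inside its range. The log2 fold change of Chrdl1 against N was 0.79 ± 0.74 for BT-T (edgeR adjusted p = 0.566) and -2.33 ± 0.79 for BTPRZ-T (adjusted p = 0.0757). Without N replicate 2, which is 1 of the 3 libraries of low gene number, the change in BTPRZ-T was -2.71 (adjusted p = 0.00557). DESeq2 called it on all 12 libraries (-2.34, adjusted p = 0.0108), as it did Id1 in that comparison (-1.09, adjusted p = 0.0330).

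Of 17 further antagonist genes, 15 were tested, and 5 rose and 0 fell in BT-T while 4 rose and 0 fell in BTPRZ-T. Among all tested genes 5.67% rose in BT-T and 5.66% in BTPRZ-T, and 2.9% and 6.18% fell. The median log2 fold change of the 15 was 0.98 and 0.17, beside -0.10 for all genes in both. Chrd, encoding the BMP-binding protein chordin, rose from 2.68 ± 0.469 CPM in normal colon to 16.3 ± 2.73 in BT-T (2.60 ± 0.30, edgeR adjusted p = 0.000531), with 12.4 ± 3.51 in BTPRZ-T (2.21 ± 0.30, adjusted p = 0.000885). Nbl1, a secreted antagonist of the same DAN family as gremlin, rose from 49.1 ± 16.2 CPM to 174 ± 40.3 in BT-T (1.83 ± 0.30, edgeR adjusted p = 0.00288), with 118 ± 28.3 in BTPRZ-T (1.26 ± 0.29, adjusted p = 0.0156). These calls of Chrd and Nbl1 held whichever 1 library was left out, and that of Nbl1 in BTPRZ-T was lost with the 2 groups fitted alone (adjusted p = 0.0620).

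Fstl1, a secreted follistatin-like glycoprotein abundant in fibroblasts, had 109.6 ± 55.5 CPM in normal colon, 551 ± 73.7 in BT-T (log2 fold change 2.33 ± 0.54, edgeR adjusted p = 0.0187), with 388 ± 296 in BTPRZ-T (1.82 ± 0.53, adjusted p = 0.0417). Its BT-T call was lost without N replicate 1, N replicate 3 or BT-T replicate 2 (adjusted p 0.0505 to 0.0558). Its BTPRZ-T call held only without N replicate 2 or BTPRZ-T replicate 3 (adjusted p 0.0547 to 0.124 in the other 10 fits). The fifth antagonist that rose in BT-T was Bmper, which lies outside the rule for named genes and was chosen after its values were seen (2.70 ± 0.75, edgeR adjusted p = 0.0440). That call held in 3 of 12 fits, without N replicate 2, BTPRZ-T replicate 3 or BTPRZ-T replicate 4 (adjusted p 0.0547 to 0.114 in the other 9). Among antagonists of high level, Twsg1 at 99.9 ± 25.1, 108 ± 7.38 and 88.5 ± 12.4 CPM and Crim1 at 74.9 ± 38.9, 103 ± 19.1 and 69.3 ± 27.3 in N, BT-T and BTPRZ-T, were not called.

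**Figure D2:**
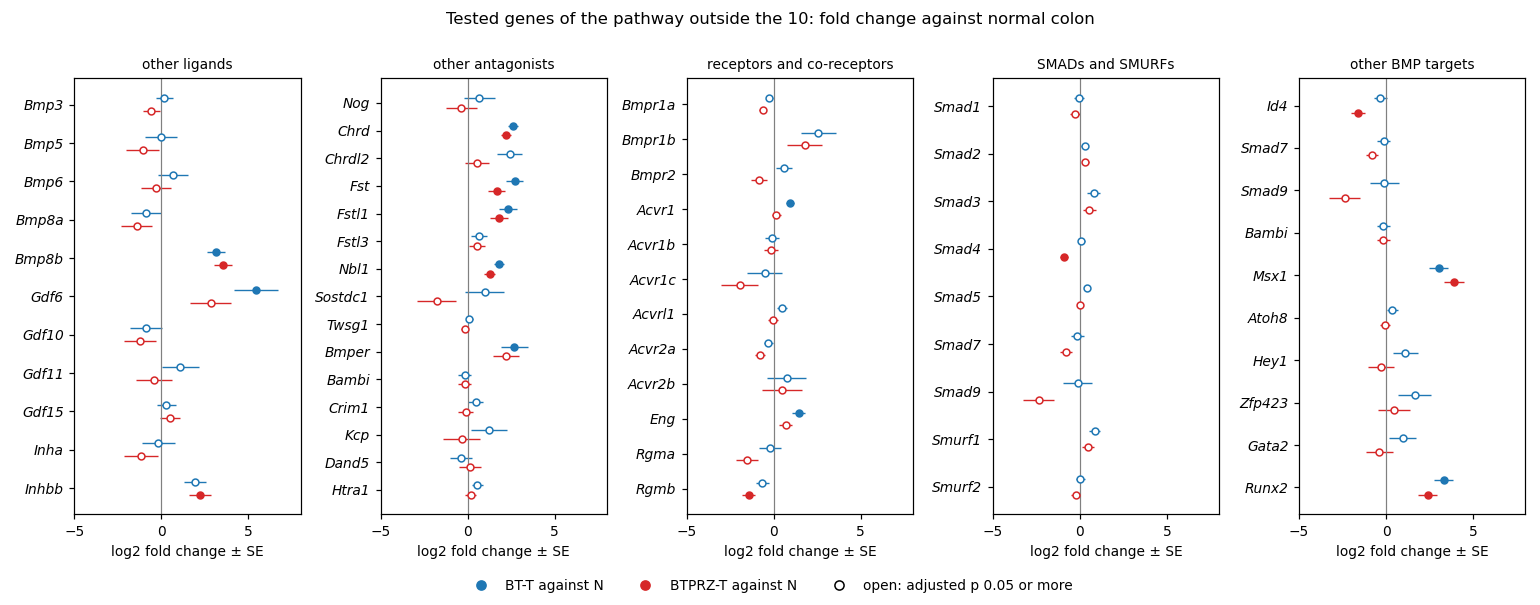
Log2 fold change against N ± SE for the tested genes of the pathway outside the 10, in panels by role, with BT-T and BTPRZ-T in separate colours; filled points have an edgeR adjusted p under 0.05. Chrd and Nbl1 are filled in both tumour groups to the right of 0, and Smad4 in BTPRZ-T to the left at -0.91.

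In the normal colon gremlin 1 is made by stromal cells, and levels of stromal markers differed between the groups. Which cells made the antagonist transcripts in these bulk samples was not resolved. The summed level of 12 fibroblast markers was 1418 to 2298 CPM in normal colon, 9063 to 17629 for BT-T and 2026 to 8965 for BTPRZ-T, with all 12 at 1 CPM or more in every library. Of these, 9 rose in BT-T and 4 in BTPRZ-T. They include the collagen gene Col1a2, at 259 ± 94.4, 2754 ± 727 and 1044 ± 819 CPM, and the matrix proteoglycan gene Dcn, at 157 ± 51.5, 840 ± 140 and 360.0 ± 143. Of the BTPRZ-T tumours, replicate 3 was lowest both in Grem1 (22.5 CPM) and in fibroblast markers (2026 CPM), while replicate 4, with the highest fibroblast sum (8965 CPM), had 108 CPM of Grem1. The 5 genes taken as trophocyte-like markers stand for the stroma below the crypt, where gremlin 1 is made. They summed to 220 to 273 CPM in normal colon, 398 to 482 for BT-T and 264 to 573 for BTPRZ-T. Of the 5, 1 rose in BT-T, Cd34. Most of the summed level is Cd81, at 195 ± 19.2, 262 ± 40.3 and 329 ± 85.4 CPM, with its highest mean in BTPRZ-T. The sum therefore follows Cd81 more than the 5 as a set. Ackr4, named after its values were seen, had lower levels in the tumours, 9.41 CPM in normal colon, 3.08 in BT-T (log2 fold change -1.61, edgeR adjusted p = 0.117) and 5.28 in BTPRZ-T. The 6 telocyte-like markers of the stroma at the crypt top, where BMP ligands are made, summed to 106 to 231, 335 to 486 and 295 to 795 CPM. Among these, F3 rose in both tumour groups, from 65.7 ± 49.6 CPM to 266 ± 32.4 and 414 ± 197, and Pdgfra had 55.4 ± 22.8, 126 ± 34.4 and 54.0 ± 21.0. F3 makes up most of the difference in the sum, which therefore follows F3 more than this stroma as a set. The highest sum, 795 CPM, was that of BTPRZ-T replicate 3, lowest of its group in fibroblast markers. That library also had the highest epithelial marker sum of all 12 (17551 CPM). Sox6 and Nrg1, also named after their values were seen, had lower means in both tumour groups (19.4, 8.27 and 3.32 CPM, and 6.47, 3.23 and 3.08 CPM), and the median log2 fold change of the 6 was 0.53 in BT-T and -0.26 in BTPRZ-T. The part of stroma in the values of Grem1, Chrdl1 and the other antagonists was not tested.

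Smooth muscle markers fell in BTPRZ-T. The 10 of them summed to 7390 to 19108 CPM in normal colon, 3703 to 6055 for BT-T and 483 to 4890 for BTPRZ-T, and 0 rose and 0 fell in BT-T while 0 rose and 7 fell in BTPRZ-T, among them Lmod1 and Smtn, genes of actin-binding proteins, with mean levels in BTPRZ-T of 12.6 and 51.7 CPM against 84.5 and 202 in N. N replicate 2 had the highest smooth muscle sum, 19108 CPM, beside 1.69 CPM of Chrdl1. The 8 markers of enteric neurons and glia summed to 45.1 to 102.5 CPM in normal colon, 26.9 to 68.6 for BT-T and 6.83 to 35.7 for BTPRZ-T, where 3 of 8 fell, including the neuronal genes Elavl4, at 0.0837 CPM against 4.61 in N, and Tubb3, at 1.07 against 9.58. The part of muscle and nerve in the values of Chrdl1 was not tested either.

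Other cell types also differed in marker level. The 10 endothelial markers summed to 157 to 235 CPM in normal colon, 393 to 762 for BT-T and 286 to 600 for BTPRZ-T, and 4 rose in BT-T and 2 in BTPRZ-T. Of these, Emcn and Cdh5, genes of vessel wall proteins, were called in both. The 12 macrophage markers summed to 144 to 435, 1090 to 1991 and 351 to 2819 CPM, and 8 rose in BT-T, 7 in BTPRZ-T, with the integrin gene Itgam and the chemokine receptor gene Cx3cr1 in both. The 10 epithelial markers summed to 11572 to 13198, 9062 to 10955 and 7919 to 17551 CPM. Of these 10, 0 rose and 2 fell in BT-T, where their median log2 fold change was -0.37. The 2 were Cdx2, a colonic transcription factor, and the keratin gene Krt20, named after its values were seen. In BTPRZ-T 1 rose, the keratin gene Krt18, and 0 fell, with a median of -0.03. Each marker of these lists had at least 1 read in each group. Their part in the values of the members was not tested.

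**Figure D3:**
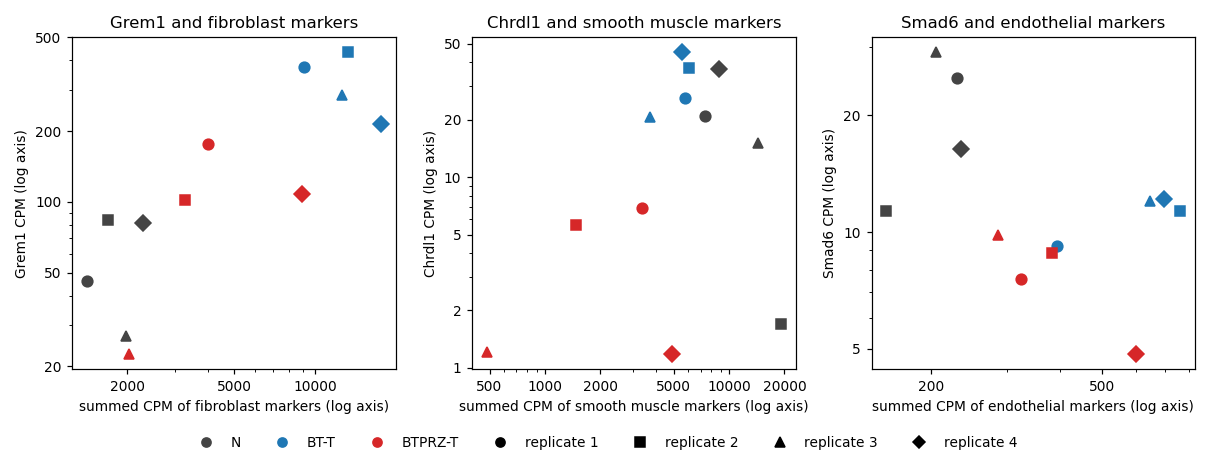
Level of Grem1, Chrdl1 and Smad6 (CPM, log axis) against the summed CPM (log axis) of fibroblast, smooth muscle and endothelial markers in the 12 libraries; colours are groups and shapes replicate numbers. BT-T lies apart at 9063 to 17629 CPM of fibroblast markers and 215 to 433 of Grem1, and N replicate 2 joins the highest smooth muscle sum with 1.69 CPM of Chrdl1.

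Set per kilobase of exon, which allows genes to be compared, the ligand and the antagonist transcripts were summed in each library. Bmp2, Bmp4 and Bmp7 together stood at 32.2, 15.2, 29.1 and 43.0 CPM per kb in normal colon, at 27.2, 30.5, 28.1 and 33.0 in BT-T and at 25.6, 27.2, 39.3 and 13.5 in BTPRZ-T. Grem1 and Chrdl1 together stood at 14.2, 20.4, 8.74 and 25.1 CPM per kb in normal colon, at 93.9, 109.8, 71.8 and 58.4 in BT-T and at 43.5, 25.5, 5.61 and 26.2 in BTPRZ-T. The antagonist sum was above the ligand sum in 4 of 4 BT-T libraries, in 1 of 4 N libraries, replicate 2, and in 2 of 4 BTPRZ-T libraries, replicates 1 and 4. Outside BT-T these are the 3 libraries of low gene number, and no other N or BTPRZ-T library had the antagonist sum above the ligand sum. No test was made of these sums, which hold members only and depend on that choice. Most of the antagonist sum was Grem1, with 78.7 CPM per kb in BT-T against 4.77 for Chrdl1. Outside the sums, the ligand gene Bmp8b had 2.16, 19.2 and 25.1 CPM per kb in N, BT-T and BTPRZ-T. Of the further antagonist genes, Nbl1 had 24.2, 85.7 and 57.9 and Fstl1 22.3, 112 and 79.0, in the same order. Among the single members, Id1 had the highest mean level per kb in N (94.6), followed by Id3 (19.4), Bmp2 (14.5) and Grem1 (14.4), and Inhba had the lowest (0.0984). In BT-T, Grem1 was highest (78.7 CPM per kb) and Id1 next (52.4). In BTPRZ-T, Id1 was highest again (46.0), with Grem1 next (24.7) and Chrdl1 lowest (0.551).

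Of 14 receptor and co-receptor genes, 12 were tested, and 2 rose and 0 fell in BT-T while 0 rose and 1 fell in BTPRZ-T. Beside them, 5.67% of all tested genes rose and 2.9% fell in BT-T, and 5.66% rose and 6.18% fell in BTPRZ-T. Acvr1, a type I receptor for BMPs and activins, had 19.4 ± 2.58 CPM in normal colon, 37.0 ± 1.80 in BT-T (log2 fold change 0.94 ± 0.24, edgeR adjusted p = 0.0288), with 21.5 ± 6.31 in BTPRZ-T. Eng, the gene of the endothelial co-receptor endoglin, had 48.5 ± 20.7, 132 ± 30.3 (1.44 ± 0.37, edgeR adjusted p = 0.0292) and 78.0 ± 24.1 CPM in the same order, beside the rise in endothelial markers given above. Rgmb, a membrane-anchored BMP co-receptor, had 65.1 ± 31.3, 41.2 ± 8.24 and 23.9 ± 4.21 CPM, and the log2 fold change in BTPRZ-T was -1.45 ± 0.37 (edgeR adjusted p = 0.0238). Acvr1 lost its call without N replicate 1 or 3 or any 1 BT-T library (adjusted p 0.0634 to 0.0943), Eng without N replicate 1 or BT-T replicate 2, 3 or 4 (0.0647 to 0.0992), and Rgmb without N replicate 1 or 3 or BTPRZ-T replicate 1 or 2 (0.0572 to 0.0730). Without N replicate 2, 7 receptor genes fell in BTPRZ-T, where 15.7% of all genes fell. The main BMP receptor genes Bmpr1a, at 182 ± 32.5, 152 ± 15.8 and 117 ± 22.1 CPM, and Bmpr2, at 123 ± 69.7, 186 ± 37.9 and 68.6 ± 21.0, were not called.

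Of 9 SMAD and SMURF genes, the cytoplasmic transducers and the ubiquitin ligases that turn them over, 1 was called. It fell in BTPRZ-T, where 6.18% of all tested genes fell against N. Smad4, the partner of both SMAD branches, had 183 ± 21.6 CPM in normal colon, 193 ± 23.0 in BT-T (log2 fold change 0.08, edgeR adjusted p = 0.868), with 97.2 ± 19.2 in BTPRZ-T (-0.91 ± 0.21, adjusted p = 0.0130). Its call in BTPRZ-T against N held whichever 1 library was left out and was lost when those 2 groups were fitted alone (adjusted p = 0.0777). Between the tumours Smad4 was lower in BTPRZ-T by -0.99 ± 0.21 (edgeR adjusted p = 0.0495), a call that held only without N replicate 2 or BTPRZ-T replicate 4 (adjusted p 0.0611 to 0.194 in the other 10 fits) and was lost without a filter (0.0596) and in the unstranded column (0.0508). Smad3, at 77.5 ± 33.6, 134 ± 30.4 and 113 ± 46.1 CPM, and Smad5, at 80.4 ± 8.70, 108 ± 3.02 and 81.0 ± 6.08, were not called. Without N replicate 2, 4 genes of this list fell in BTPRZ-T, beside the same 15.7% of all genes.

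None of Id1, Id2 and Id3 was called against N by edgeR on all 12 libraries, and their log2 fold changes differed in sign. Id1 (chromosome 2, 152736251 to 152737410, plus strand) stood at 83.5, 182, 92.1 and 81.4 CPM in normal colon, at 86.1, 55.8, 46.3 and 55.0 in BT-T and at 82.9, 48.1, 28.3 and 54.1 in BTPRZ-T. Replicate 1 of each tumour group reached the lower N libraries, and the other 6 tumours lay below all of N. The mean was not called changed: it was 109.7 ± 48.3 CPM in normal colon, 60.8 ± 17.4 in BT-T (log2 fold change -0.85 ± 0.36, edgeR adjusted p = 0.172), with 53.3 ± 22.6 in BTPRZ-T (-1.04 ± 0.36, adjusted p = 0.0841). Without BTPRZ-T replicate 1 the second comparison was called (adjusted p = 0.0426).

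Id2 (chromosome 12, 25093799 to 25097140, minus strand) went in the other direction in value, at 21.1, 32.0, 21.8 and 18.0 CPM in normal colon, 30.5, 28.1, 23.7 and 23.9 in BT-T, and 45.2, 28.3, 21.5 and 47.2 in BTPRZ-T. The 2 highest libraries were BTPRZ-T replicates 1 and 4, which are also those with few genes detected. The same 2 libraries were the highest of BTPRZ-T in Id1 and Id3. N replicate 2, also of low gene number, was the highest of N in Id1, Id2 and Id3. The log2 fold change of Id2 was 0.19 ± 0.28 for BT-T (edgeR adjusted p = 0.741) and 0.61 ± 0.29 for BTPRZ-T (adjusted p = 0.199; 0.0353 without N replicate 2). Id3 (chromosome 4, 136143497 to 136145755, plus strand) had 29.8, 66.6, 29.7 and 13.1 CPM in normal colon, 38.3, 40.4, 31.8 and 23.6 in BT-T, and 39.4, 29.3, 16.4 and 43.3 in BTPRZ-T, and the highest and the lowest library were both N. Its log2 fold change was -0.05 ± 0.43 for BT-T (edgeR adjusted p = 0.961) and -0.12 ± 0.43 for BTPRZ-T (adjusted p = 0.915), with a sign that turned under several settings.

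Smad6 (chromosome 9, 63953076 to 64022059, minus strand) was the only target of the 10 that fell, and did so in BTPRZ-T. It stood at 24.9, 11.3, 29.0 and 16.3 CPM in normal colon, at 9.20, 11.3, 11.99 and 12.2 in BT-T and at 7.55, 8.86, 9.81 and 4.84 in BTPRZ-T. All BTPRZ-T libraries lay below all N libraries, as they did for 7.64% of all genes, while N replicate 2 lay within the BT-T range. The mean was 20.4 ± 8.04 CPM in normal colon, 11.2 ± 1.36 in BT-T (log2 fold change -0.87 ± 0.33, edgeR adjusted p = 0.132), with 7.76 ± 2.15 in BTPRZ-T (-1.39 ± 0.34, adjusted p = 0.0184). The call in BTPRZ-T was lost without N replicate 1 (adjusted p = 0.0592), without N replicate 3 (0.0612) and when the 2 groups were fitted alone (0.0866). Without N replicate 2 the change in BT-T was -1.07 and was called (adjusted p = 0.0244). Smad6 is also expressed in endothelium, whose summed markers were higher in each tumour library than in any N library, and their part in the values of Smad6 was not tested.

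Of 13 other BMP target genes, 10 were tested, and 2 rose and 0 fell in BT-T while 2 rose and 1 fell in BTPRZ-T. The shares of all tested genes were 5.67% risen and 2.9% fallen in BT-T, and 5.66% and 6.18% in BTPRZ-T. Msx1, a homeobox gene, rose from 0.574 ± 0.113 CPM to 4.75 ± 2.03 in BT-T (log2 fold change 3.03 ± 0.55, edgeR adjusted p = 0.00468), with 8.79 ± 4.46 in BTPRZ-T (3.92 ± 0.56, adjusted p = 0.00118). Runx2, a transcription factor of bone formation, rose from 1.40 ± 1.06 CPM to 13.9 ± 2.64 (3.31 ± 0.57, edgeR adjusted p = 0.00383) and 7.36 ± 1.66 (2.39 ± 0.55, adjusted p = 0.0151). Id4, the last of the Id family, had 16.995 ± 4.37 CPM in normal colon, 13.4 ± 4.51 in BT-T and 5.56 ± 2.78 in BTPRZ-T (-1.61 ± 0.39, edgeR adjusted p = 0.0197; 0.0593 without BTPRZ-T replicate 2). The call of Msx1 in BT-T was lost by voom (adjusted p = 0.0629), and those of Runx2 and Id4 in BTPRZ-T with the 2 groups alone (0.105 and 0.0735). The median log2 fold change of the 10 was 0.66 in BT-T and -0.22 in BTPRZ-T, beside -0.10 for all genes in both.

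The tumours were then compared with each other, which is the test of whether the members' changes against N differ between genotypes. Of the 10 members, edgeR called 0, where 0.754% of all genes were called (0.155% higher, 0.599% lower), and 2 had an unadjusted p under 0.05, as did 17.3% of all genes. DESeq2 called 2, Grem1 and Chrdl1, and 8.23% of all genes. Both antagonists were lower in every BTPRZ-T library than in any BT-T library, as were 12.7% of all genes, and 11.5% were higher. Grem1 differed by -1.67 ± 0.53 on the log2 scale (edgeR adjusted p = 0.142; 0.0414 without N replicate 2; 0.0266 by DESeq2). Chrdl1 differed by -3.12 ± 0.81, with a BT-T mean of 32.2 ± 11.1 CPM that was 8.66 times the 3.72 ± 2.97 of BTPRZ-T (edgeR adjusted p = 0.0910; 0.00747 without N replicate 2; 0.0197 with the 2 groups alone; 0.00117 by DESeq2). The fibroblast marker sums given above were lower in BTPRZ-T, while the smooth muscle sums overlapped, at 483 to 4890 CPM against 3703 to 6055 in BT-T. Between the tumours 0 of 12 fibroblast markers and 1 of 10 smooth muscle markers fell by edgeR, and 0 of either list rose. By DESeq2 8 and 5 fell and 0 rose, where 6.09% of all genes fell. Without N replicate 2, edgeR had 7 and 5 fallen and 0 risen, where 8.23% of all genes fell. The part of these cell types in the difference of Grem1 and Chrdl1 was not tested.

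The other 8 members were not called between the tumours either (edgeR adjusted p 0.383 to 0.948). Inhba differed by -0.92 ± 0.53 (edgeR adjusted p = 0.383) and Smad6 by -0.53 ± 0.33 (adjusted p = 0.426). Id1, Id2 and Id3 differed by -0.19 ± 0.36, 0.42 ± 0.28 and -0.06 ± 0.43, and Bmp2, Bmp4 and Bmp7 by -0.34 ± 0.40, -0.11 ± 0.29 and 0.32 ± 0.55, on the log2 scale. The median over the 10 was -0.26, beside -0.03 over all genes. A p above the threshold does not show that the tumour groups were alike.

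**Figure D4:**
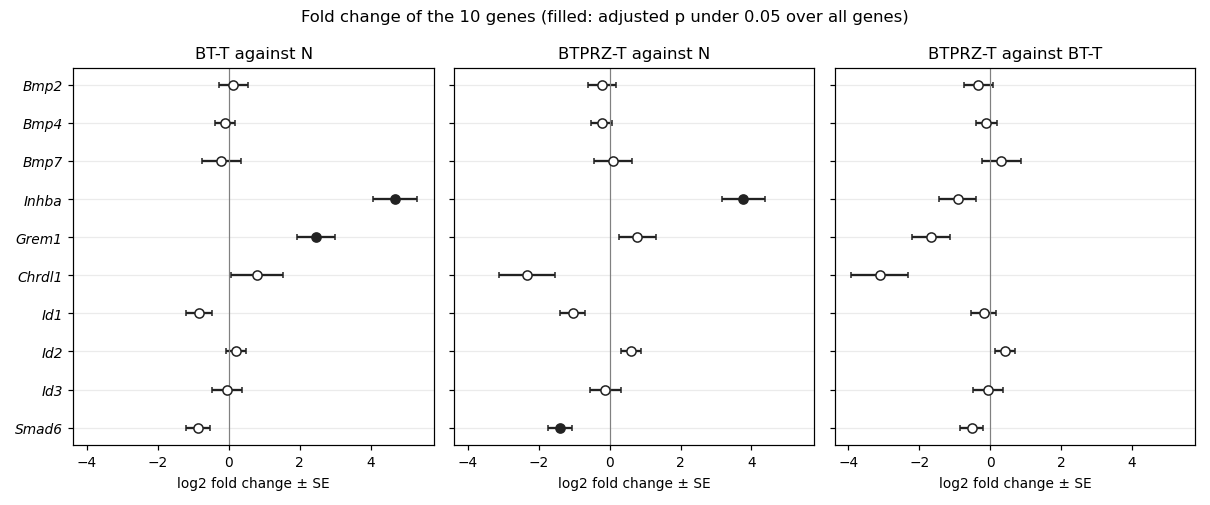
Log2 fold change ± SE of the 10 genes in the 3 comparisons, 1 panel each; filled points have an edgeR adjusted p under 0.05 over all genes. Inhba is filled in both comparisons with N at 4.69 and 3.77, Grem1 in BT-T at 2.45 and Smad6 in BTPRZ-T at -1.39, and no point is filled between the tumours.

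Genes with the most similar profile were looked up by the root mean square difference of log2 CPM over the 12 libraries, each profile centred on its own mean, among 11385 genes of at least 5 CPM; lower is more alike. Grem1 was nearest to Chrdl2 (0.45), another chordin-like antagonist, and to the collectin gene Colec12 (0.56), beside a median of 1.47 over all genes. Chrdl2 had 8.99 ± 6.93 CPM in normal colon, 48.2 ± 18.2 in BT-T and 13.1 ± 11.4 in BTPRZ-T. It was not called in BT-T or BTPRZ-T against N (edgeR adjusted p = 0.0523 and 0.690), nor between the tumours (0.195). Inhba was nearest to the annexin gene Anxa8 (0.75) and the hyaluronidase gene Cemip (0.76; median 2.12), and Chrdl1 to Ngfr (0.74) and Kcnd3 (0.75; median 1.89), a neurotrophin receptor and a potassium channel gene. Smad6 was nearest to Fdxr (0.22) and Slc16a1 (0.24; median 0.85). The nearest genes of the others were Klf6 and Ddx19b for Bmp2 (both 0.21), Atxn7l1 and Phf3 for Bmp4 (0.11 and 0.13), Mcoln1 and Fam135a for Bmp7 (0.38 and 0.39), Naprt1 and Acot7 for Id1 (0.15 and 0.23), Brms1l and Ift46 for Id2 (0.15 each) and Slc25a4 and Arl3 for Id3 (0.25 and 0.27). Among the 45 pairs of members, Bmp2 and Bmp4 were closest (0.38), then Id2 and Id3 (0.42), and Inhba and Chrdl1 farthest apart (2.65). These are descriptions over libraries that share group and depth differences.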

How the data were processed

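Per the labels' protocols, libraries came from a stranded poly(A) kit, and 100-base single reads were taken. Per the submitters' processing notes, bcl2fastq 2.20, STAR 2.4.2a, edgeR 3.16.5, limma and HTSeq were used with mm10. The authors deposited raw read counts per gene, not normalized and with no reads that map to several loci. Column 4, the stranded count with most reads, was taken, and the opposite strand had 0.819 to 0.994% of its reads. For the annotation no source is given.

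Counts were filtered with filterByExpr by group (14860 of 24054 genes kept), scaled by TMM and fitted with edgeR 4.0.16 (glmQLFit robust, glmQLFTest, R 4.3.3), with 1 mean per group over 12 libraries. CPM per kb used merged exon length of GENCODE M21 (GRCm38), matched by symbol, as were positions. Promoters are from RefSeq (GRCm38.p6). Alternatives were RLE factors, no filter, 2 CPM in at least 4 libraries, the unstranded column, DESeq2 1.42.0, a replicate term, limma 3.58.1 with voom, only the 2 compared groups, no robust estimation, and leaving out each library. The pipeline was tested on simulated counts for BT-T against N. It called 2 of 100 genes changed 2-fold and 42 of 100 genes changed 4-fold, 0 of them in the wrong direction. All other genes were left unchanged there, while 1274 were called in the data. With few changed genes the adjusted p is stricter, so these shares are not the power of the real fit. A gene that was not called may still have changed by such a fold.

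The members and lists were chosen with earlier results of these data known. Named genes are the 10 members, up to 4 called genes of lowest adjusted p per pathway list and those over 100 CPM in a group, 2 genes per marker list, the 2 genes most like each member, and the 5 edited genes. An antagonist gene of the pathway is not reported here and is left out of the list counts.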

Additional observations from a re-analysis of the deposited data

Results flagged for a closer look

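In 2 of 30 checks, 1 library lay far from the other 3 of its group by Dixon's criterion, which chance alone meets in about 1 of 20. Both were N replicate 2, the N library with the fewest genes detected. Bmp4 stood there at 13.7 CPM, against 29.1 to 31.5 CPM in the other N libraries. Id1 stood there at 182 CPM, against 81.4 to 92.1 CPM. Without N replicate 2, neither gene was called in BT-T or in BTPRZ-T against N.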

How the results depend on the processing

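The calls of Inhba and the direction of Grem1, Chrdl1, Id1 and Smad6 in the comparisons with N were the same under every alternative run. The cause of the shifts below was not tested. Genes called against N, 1274 for BT-T and 1760 for BTPRZ-T, came to 2447 and 3270 by DESeq2. Between the tumours, 112 became 1311 by DESeq2 and 266 by voom. With the 2 compared groups alone, 647 were called in BTPRZ-T against N and 1568 between the tumours, and of the members 1 and 1. DESeq2 called 4 members in BTPRZ-T against N and 2 between the tumours. Alternatives chosen after seeing the data were the fit without the 3 libraries of low gene number (4359, 5311 and 3723 genes; 4 members in BTPRZ-T against N and 2 between the tumours) and voom with sample quality weights (6156, 8211 and 7734 genes; 4, 7 and 2 members). Leaving out 1 library gave 624 to 2030, 1076 to 4855 and 0 to 2714 genes, and 1 to 3, 1 to 4 and 0 to 2 members.

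Replicate numbers were not taken as pairs: same-numbered libraries correlated in their deviations at -0.249 to 0.239 (BT-T and N), -0.297 to 0.213 (BTPRZ-T and N) and 0.0712 to 0.315 (between the tumours, where each library correlated best with its own number, a hint from the data alone). With the replicate block, 945, 1160 and 1 genes and 2, 2 and 0 members were called. Calls of other pathway genes lost under the block were Gdf6 (adjusted p = 0.0657), Bmper (0.0601), Acvr1 (0.0651) and Eng (0.0555) in BT-T, Fst (0.0927), Fstl1 (0.0728) and Rgmb (0.0718) in BTPRZ-T, and Smad4 between the tumours (0.105). With the 2 groups alone, Inhbb (0.119), Fst (0.136), Fstl1 (0.144) and Rgmb (0.0907) also lost their calls in BTPRZ-T.

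Signs that turned belong to members that were not called. For BT-T against N, Bmp2 was -0.074 without the 3 libraries, and Id3 was 0.0040 without a filter, 0.15 by voom, 0.049 with the replicate block, 0.34 with quality weights and 0.53 without the 3 libraries. For BTPRZ-T against N, Bmp7 was -0.45 by voom and -0.12 with the block, and Id3 was 0.0235 by voom, 0.0232 with the block and 0.072 with quality weights. Between the tumours, Bmp7 was -0.23 by voom, and without the 3 libraries Bmp2 was 0.0012, Bmp4 0.077 and Id2 -0.088. Leaving out 1 library moved Bmp2 over -0.14 to 0.49 (BT-T) and -0.48 to 0.15 (BTPRZ-T) against N, Bmp7 over -0.47 to 0.47 in BTPRZ-T against N and -0.25 to 0.64 between the tumours, Id1 over -0.49 to 0.025 between the tumours, and Id3 over -0.32 to 0.47, -0.39 to 0.40 and -0.28 to 0.15. Read depth limits Inhba in N (39 reads over 4 libraries) and Gdf6.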
